A study of Mus musculus with 43 samples.

Results

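Transcript levels of 9 genes that act on mineral deposition or on urinary crystals were followed through the proximal tubule in kidneys of female mice. They were chosen by symbol, with the levels below already known, and all 9 were found among 54532 genes in the deposited expression table, namely Spp1, Spp2, Alpl, Enpp1, Mgp, Umod, Ahsg, Fetub and Ambp. The study collected tubules from female and male C57BL/6 mice of 6 to 8 weeks, supplied by Taconic and given no treatment that the labels mention, and took 2 to 5 tubules for each sample. RNA-seq of the female segments S1 (6 libraries), S2 (6) and S3 (7), the successive parts of the tubule, was used here. Chromatin accessibility libraries (24, of both sexes) were not analysed here. The numbers in the RNA-seq titles are 4 and 5 for S1, 1, 2 and 3 for S2, and 2, 3, 4 and 5 for S3. If these number the animals, which the labels do not say, S1 and S2 shared none. The authors deposited 1 value per gene and segment in TPM, a transcript abundance scaled to a fixed total and divided by transcript length. No spread between libraries can be given, no test was possible, and every difference below describes these 3 columns.

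Calcium phosphate and calcium oxalate crystallise readily in tubule fluid and soft tissue, and several systems hold this back. Enpp1 makes pyrophosphate, a small inhibitor of mineral growth, from extracellular ATP, and Alpl, tissue-nonspecific alkaline phosphatase, breaks pyrophosphate down to phosphate. Secreted proteins add to this: osteopontin (Spp1) and uromodulin (Umod) in urine, the vitamin K-dependent matrix Gla protein (Mgp) in vessel walls and cartilage, and the fetuins (Ahsg, Fetub) and bikunin (from Ambp) in plasma. In the kidney, uromodulin is the classical product of the thick ascending limb, which follows the proximal tubule and the thin limbs.

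All 6 proximal tubule markers were present in each column, at levels of 24.0 TPM or more. Lrp2 (143 to 259 TPM), Cubn and Hnf4a differed less than 2-fold, while Slc27a2 and Ggt1 were lowest in S1 (611.0 and 75.1 TPM, against 5475.5 and 1538.7 TPM in S3) and Slc4a4 ran from 686.3 TPM in S1 to 24.0 TPM in S3. The 5 S1 markers were each highest in S1 (summed 18372, 2434 and 34.3 TPM in S1, S2 and S3), the 3 S2 markers in S2 (306, 793 and 2.8 TPM) and the 4 S3 markers in S3 (3.3, 2550 and 4272 TPM). The S2 column thus held S1 and S3 markers at higher sums than its own. Endothelial markers were highest in S2 (7 of 7 genes, summed 56.4, 554 and 223 TPM in S1, S2 and S3), as were 8 of 8 stromal and smooth muscle markers (2.3, 17.3 and 2.3 TPM) and 5 of 6 immune markers (53.3, 253 and 89.4 TPM). Of all 16053 genes that reached 1 TPM in some segment, 36.4% were highest in S2. In such bulk samples, more cells of a type and more RNA per cell cannot be told apart.

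Spp1, Spp2 and Alpl shared 1 pattern, high in S1 and lower at each step, while Umod ran the other way. The bases before their annotated start sites are shown because these genes move together or in opposition along the same tubule. They come from RefSeq windows on GRCm38.p6 that reach from 250 bases before to 50 after a start site, of which 11 matched 8 of the 9 genes (Mgp matched none). The printed part lies before the start site, and for Spp2 before the outermost start of the gene, which leaves 206 bases. Capitals mark letters found by a search of both strands. The motifs were TATAAA, the TATA box, and CCAAT, the box of that name. GTTAAT is part of the site of HNF1 factors, and GGGCGG is the site of Sp1. The last, CAAAGTCCA, is a site of HNF4 factors. No matches overlapped, other than 2 of GGGCGG before Alpl that shared 1 base.
Spp1, upstream start, chr5:104434861-104435110, plus strand: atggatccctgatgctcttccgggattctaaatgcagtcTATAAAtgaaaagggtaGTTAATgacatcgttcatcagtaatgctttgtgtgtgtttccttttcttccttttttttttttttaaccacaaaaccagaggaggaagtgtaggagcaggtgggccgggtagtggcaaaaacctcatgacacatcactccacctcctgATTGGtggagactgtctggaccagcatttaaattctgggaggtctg
Spp2, chr1:88406760-88406965, plus strand: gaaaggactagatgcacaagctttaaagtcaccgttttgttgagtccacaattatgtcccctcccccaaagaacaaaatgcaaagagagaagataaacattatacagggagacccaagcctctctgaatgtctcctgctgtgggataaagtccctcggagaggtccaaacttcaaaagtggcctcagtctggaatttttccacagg
Alpl, upstream start, chr4:137796385-137796634, minus strand: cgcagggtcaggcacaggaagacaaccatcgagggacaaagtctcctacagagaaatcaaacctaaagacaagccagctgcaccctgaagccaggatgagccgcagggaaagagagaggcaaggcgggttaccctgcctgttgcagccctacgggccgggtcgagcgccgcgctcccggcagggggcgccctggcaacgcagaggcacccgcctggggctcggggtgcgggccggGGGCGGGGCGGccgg
Alpl, downstream start, chr4:137766476-137766725, minus strand: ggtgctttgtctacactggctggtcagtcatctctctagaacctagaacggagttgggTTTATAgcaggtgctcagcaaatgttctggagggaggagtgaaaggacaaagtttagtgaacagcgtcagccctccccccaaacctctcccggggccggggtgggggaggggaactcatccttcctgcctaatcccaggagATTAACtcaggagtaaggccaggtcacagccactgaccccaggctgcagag
Umod, chr7:119479263-119479512, minus strand: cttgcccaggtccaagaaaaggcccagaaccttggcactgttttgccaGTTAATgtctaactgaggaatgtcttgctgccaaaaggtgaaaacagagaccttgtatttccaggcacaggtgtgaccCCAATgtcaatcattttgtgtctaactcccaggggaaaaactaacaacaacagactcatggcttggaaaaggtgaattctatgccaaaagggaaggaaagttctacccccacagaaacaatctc

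GTTAAT began 194 bases before the upstream start of Spp1, 51 bases before the downstream start of Alpl (on the opposite strand) and 202 bases before the start of Umod. Among all 32851 windows of this length 7.10% held it. The letters were thus before genes of both patterns. Spp1 also held TATAAA at 211 bases and CCAAT, on the opposite strand, at 46 bases, and Umod held CCAAT at 124 bases. CAAAGTCCA, held by 0.475% of all windows, was in none of the 11. The Alpl windows differed. The upstream one held GGGCGG at 15 and 10 bases before the start and again from the start site on, and the downstream one held TATAAA at 192 bases on the opposite strand. GGGCGG occurs in 35.7% of all windows, TATAAA in 13.6% and CCAAT in 37.4%. No searched letters lay in the Spp2 window or in the window of a downstream start of Spp1, which is not printed. Fetub was the only one of the 8 genes with TATAAA near the usual place of a TATA box, 31 bases before its upstream start. Gene-level TPM does not show which start was used, and a match of letters is a description, not evidence of binding.

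Among the secreted phosphoproteins, Spp1 was the most abundant of the 9 genes in every segment. Its product, osteopontin, is an acidic phosphoprotein of bone and urine that coats calcium crystals and binds integrins. Spp1 (chromosome 5, 104435111 to 104441053) stood at 4790.0 TPM in S1, 902.8 TPM in S2 and 140.1 TPM in S3. It ranked 19th of all genes in S1, 112th in S2 and 991st in S3, and took 0.479%, 0.0903% and 0.0140% of the TPM totals. S1 was 5.31-fold above S2, and S2 6.44-fold above S3. Spp1 was therefore still well expressed in the segment where it was lowest, unlike the pair described next.

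Spp2 matched Spp1 in S1 and almost disappeared by S3. It encodes a secreted phosphoprotein known from bone matrix and plasma, with a cystatin-like domain related to that of the fetuins. Spp2 (chromosome 1, 88406966 to 88428300) was at 4627.3 TPM in S1 (rank 21), 105.5 TPM in S2 (rank 1220) and 3.7 TPM in S3 (rank 9283). The S1 level was 43.9-fold that of S2 and 1251-fold that of S3, and with values rounded to 1 decimal the latter ratio lies between 1233.9 and 1267.8. On the log2(TPM + 1) scale its S1 minus S3 difference of 9.94 was the 3rd highest of the 16053 genes. The Spp2 level relative to Spp1 was 0.966 in S1, 0.117 in S2 and 0.0264 in S3, so the pair parted after S1.

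Alpl had the steepest step between S2 and S3 of the 9 genes. The enzyme sits on the outer cell surface by a lipid anchor and removes phosphate from pyrophosphate and other substrates. Alpl (chromosome 4, 137741731 to 137796384) was at 1128.6 TPM in S1, 160.6 TPM in S2 and 0.8 TPM in S3. The S1 to S2 ratio was 7.03 and the S2 to S3 ratio 201, which rounding places between 189 and 214. The S1 minus S3 difference of 9.29 (log2) was the 5th highest among all genes and the S2 minus S3 difference of 6.49 the 10th highest. The other alkaline phosphatase genes, Akp3, Alppl2 and Alpi, did not exceed 0.2 TPM in any segment.

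**Figure D1:**
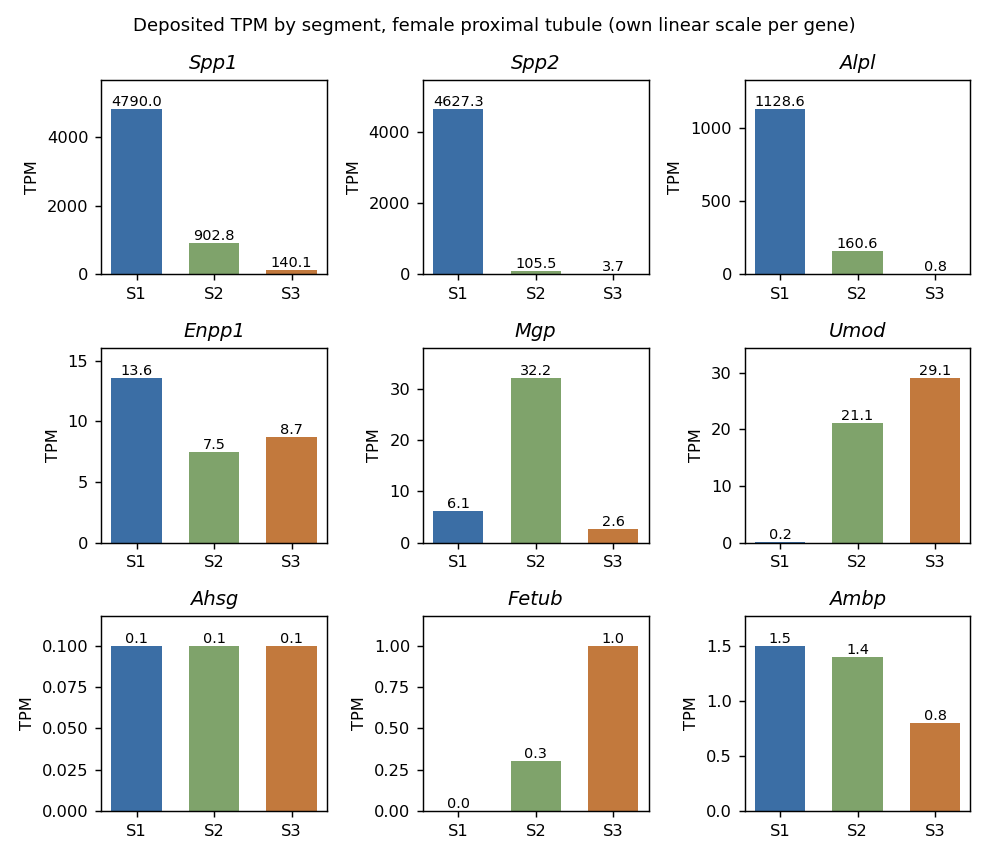
Deposited TPM of each of the 9 genes in S1, S2 and S3, 1 bar per segment with its value above it, on a linear axis that starts at 0 and is set for each gene, with no error bars because each bar is 1 deposited value. Spp1, Spp2 and Alpl descend from S1 to S3, Mgp peaks in S2 at 32.2 TPM, Umod is at 0.2 TPM in S1 against 21.1 and 29.1 TPM, and Ahsg, Fetub and Ambp do not exceed 1.5 TPM.

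Genes that, like these 3, were at least 2-fold lower at each step from S1 to S2 to S3 on the log2(TPM + 1) scale made up 1.33% of the 16053 compared (214 genes). In S1 the 9 genes together took 1.06% of the TPM total, of which Spp1, Spp2 and Alpl held 99.8%. In S2 the share of the total was 0.123% and in S3 0.0187%, with Spp1 alone at 75.0% of the S3 sum.

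Enpp1, on the pyrophosphate-producing side, differed by less than 2-fold between any 2 segments as deposited. It is a membrane ectoenzyme that splits ATP into AMP and pyrophosphate. Enpp1 (chromosome 10, 24637914 to 24712159) was at 13.6 TPM in S1, 7.5 TPM in S2 and 8.7 TPM in S3. S1 minus S2 was 0.78 on the log2 scale, and 1.42 under median-of-ratios scaling, which takes it past 2-fold. Because TPM is per length, its level can be set beside that of Alpl within a segment. Alpl was 83.0 times Enpp1 in S1 and 21.4 times in S2. In S3 the order was the reverse, with Enpp1 at 10.9 times Alpl.

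Other genes of pyrophosphate and phosphate supply were mostly highest in S3. Of 10 such genes in the table, 9 reached 1 TPM, 6 were highest in S3 (26.4% of all genes compared), and for 4 (Ank, Nt5e, Entpd5 and Ppa1) the S1 value lay at least 2-fold below that of S3. For 1, Abcc6, it lay 2-fold above. Of all genes, 13.1% were at least 2-fold higher in S3 than in S1. The median difference of the 10 for S1 minus S3 was -0.85, beside -0.01 over all genes compared. Ank, a membrane protein that lets pyrophosphate or ATP out of cells, was at 0.3, 8.4 and 13.6 TPM, so Alpl was 19.1 times Ank in S2 and Ank 17.0 times Alpl in S3. Nt5e, the surface enzyme CD73 that turns AMP into adenosine and phosphate, was at 4.1, 38.5 and 60.2 TPM.

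Entpd5, a nucleoside diphosphatase, was at 75.1, 256.3 and 335.3 TPM along the 3 segments. The inorganic pyrophosphatase Ppa1 was at 49.6, 67.4 and 106.4 TPM, and its mitochondrial relative Ppa2 at 336.4, 295.5 and 296.4 TPM. Abcc6, a transporter whose activity supplies extracellular pyrophosphate from liver, was at 7.5, 7.4 and 3.0 TPM. The S1 minus S3 call of Ppa1 was lost under median-of-ratios scaling (-0.90 in place of -1.09). The phosphate transporters Slc20a2 (18.3 to 31.0 TPM) and Xpr1 (10.9 to 17.4 TPM) differed less than 2-fold. Slc20a1, of the same kind, was at 9.5, 15.7 and 19.7 TPM, with an S1 minus S3 difference of -0.98 that became -1.02 without mitochondrially encoded genes, Gpx3 and Kap in the total. Phospho1, a phosphatase of mineralizing cartilage, was listed at 0 throughout.

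Several relatives of Enpp1 were further apart between segments. Enpp2 (autotaxin, which makes lysophosphatidic acid) was at 653.0, 39.4 and 1.9 TPM in the order S1 to S3. Enpp6, a choline-specific phosphodiesterase, was at 174.9, 33.0 and 0.9 TPM, and Enpp5 at 174.2, 52.3 and 43.2 TPM. For these 3, S1 lay at least 2-fold above S2, as it did for 6.62% of all genes. Enpp3, the gene next to Enpp1 on chromosome 10 at a gap of 61.7 kb, was the only one of the 6 with S1 at least 2-fold below another segment, at 16.2, 47.8 and 60.5 TPM. Its S1 minus S2 difference fell below 2-fold under median-of-ratios scaling (-0.82 in place of -1.50). The sum of Enpp2 to Enpp7 was 1024.5 TPM in S1, 178 TPM in S2 and 112 TPM in S3.

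**Figure D2:**
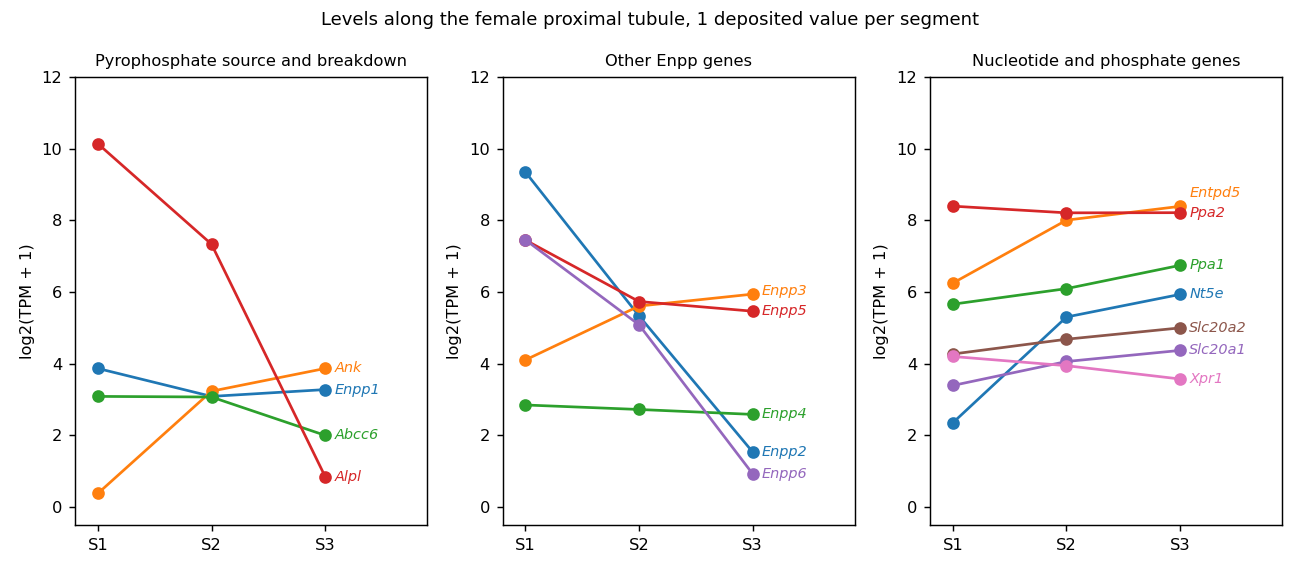
Levels as log2(TPM + 1) in S1, S2 and S3, 1 point per segment joined by lines, for genes of pyrophosphate supply and breakdown (left), other Enpp genes (middle) and nucleotide and phosphate genes (right). Alpl crosses Enpp1 and Ank between S2 and S3, going from 160.6 to 0.8 TPM, while Ank goes from 8.4 to 13.6 TPM.

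Umod was nearly absent from S1 and present in S2 and S3. Uromodulin is the most abundant protein of normal urine, where it forms filaments that hinder crystal clumping. Umod (chromosome 7, 119462708 to 119479262) was at 0.2 TPM in S1, 21.1 TPM in S2 and 29.1 TPM in S3. S2 was thus 106-fold above S1, which rounding of the S1 value places between 84.2 and 141, and S3 was 1.38-fold above S2. On the log2 scale the S1 minus S3 difference was -4.65. Within the list of 7 thick ascending limb markers, Bsnd was at 0 in all segments, Kcnj1 at 0.1 TPM in each, Cldn16 at up to 0.1 TPM and Slc12a1, the sodium-potassium-chloride cotransporter that defines that limb, at 0.4, 0.3 and 1.0 TPM. A pair of markers had the order of Umod or nearly so, Cldn19 at 0.0, 10.1 and 60.5 TPM, and Egf at 3.3, 19.0 and 18.5 TPM. The list summed to 3.9 TPM in S1, 29.6 TPM in S2 and 80.5 TPM in S3, nearly all of it from this pair, and its part in the Umod values was not tested.

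Mgp was the only gene of the 9 with its peak in S2. The small protein binds calcium through carboxylated glutamates and keeps arteries and cartilage from calcifying. Mgp (chromosome 6, 136872435 to 136875823) was at 6.1 TPM in S1, 32.2 TPM in S2 and 2.6 TPM in S3, so S2 was 5.28-fold above S1 and 12.4-fold above S3. Between S1 and S3 its difference was 0.98 on the log2(TPM + 1) scale, just under the threshold, and 1.17 under median-of-ratios scaling. The endothelial markers moved in the same way between S1 and S2, all 7 at least 2-fold higher in S2 (17.7% of all genes). Examples were Emcn at 14.1, 155.8 and 51.3 TPM and Kdr at 3.5, 41.0 and 7.0 TPM. Between S2 and S3 all 7 were at least 2-fold higher in S2 as deposited (8.74% of all genes). Under median-of-ratios scaling 3 of 7 were, beside 730 of all 16053 genes. Between S1 and S3 the order of the endothelial sum was opposite to that of Mgp, at 56.4 TPM in S1 and 223 TPM in S3. For 4 of the 7, S1 lay at least 2-fold below S3 (13.1% of all genes). Of stromal and smooth muscle markers that reached 1 TPM, 4 of 5 were at least 2-fold higher in S2 than in either neighbour (3 for S1 minus S2 under median-of-ratios scaling), with Dcn at 0.6, 5.1 and 0.6 TPM, and Acta2 and Myh11 did not exceed 0.9 TPM. Among immune markers, 5 of 6 were highest in S2 (36.4% of all genes), such as Cd74 at 50.1, 192.7 and 37.8 TPM. Csf1r, at 0.5, 32.0 and 46.9 TPM, was highest in S3. The part of these cells in the Mgp values was not tested.

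**Figure D3:**
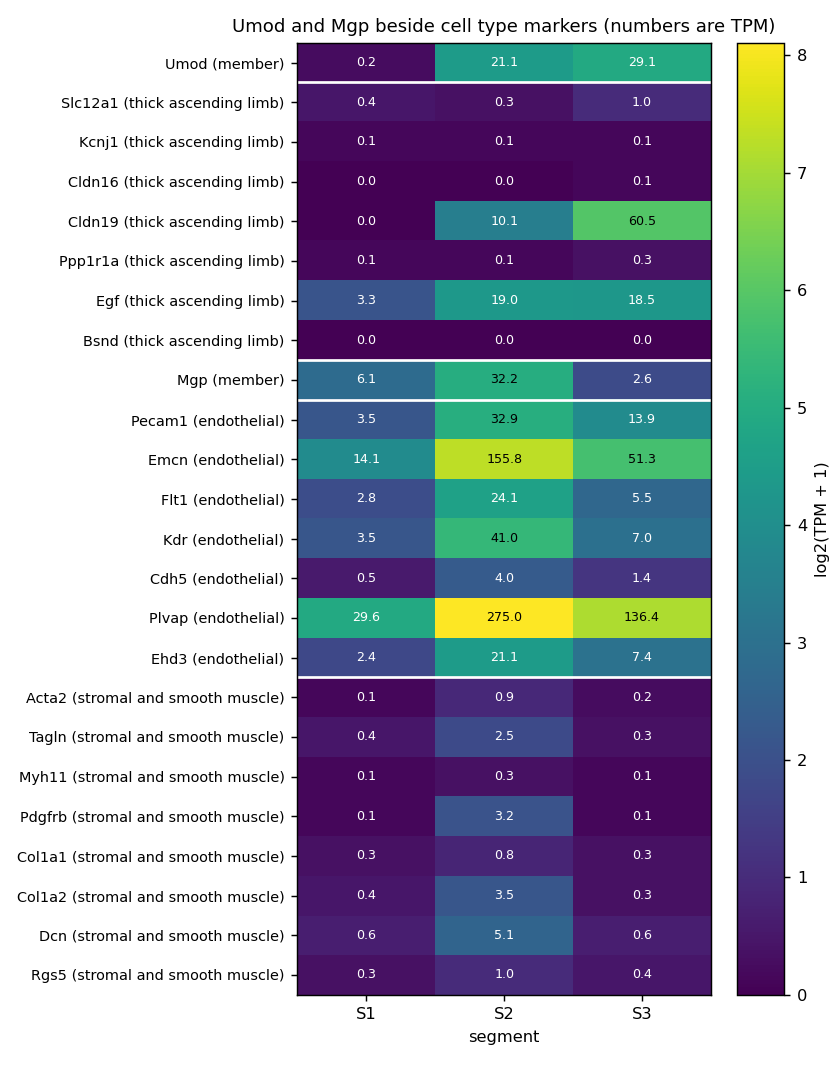
TPM of Umod beside thick ascending limb markers and of Mgp beside endothelial and stromal or smooth muscle markers, 1 row per gene and 1 column per segment, with TPM printed in each cell and log2(TPM + 1) as colour. Slc12a1, Kcnj1, Cldn16, Ppp1r1a and Bsnd stay at or under 1.0 TPM where Umod is at 21.1 and 29.1 TPM, while Cldn19 and Egf reach 60.5 and 19.0 TPM. All endothelial markers are highest in S2, as Mgp is, but their sum is higher in S3 than in S1, unlike Mgp.

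The plasma proteins Ahsg, Fetub and Ambp were at or near the lower end of the table. Ahsg, fetuin-A, which carries calcium phosphate in blood as soluble particles, was listed at 0.1 TPM in each segment (chromosome 16, 22892015 to 22899451). It was the 1 gene of the 9 that did not reach 1 TPM anywhere, and its locus overlaps the predicted gene Gm30505 in RefSeq. Fetub, fetuin-B, an inhibitor of the egg protease ovastacin, was listed at 0 in S1, at 0.3 TPM in S2 and at 1.0 TPM in S3 (chromosome 16, 22918382 to 22939768). That S1 minus S3 difference of -1.00 lay exactly at the threshold, and was -0.26 with a pseudocount of 5. Ambp, from which both alpha-1-microglobulin and the protease inhibitor bikunin are cut, was at 1.5, 1.4 and 0.8 TPM (chromosome 4, 63143275 to 63154172). Values this low may rest on few reads, and how many is not known here.

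Other plasma proteins made chiefly by liver were found at a wide range of levels. Of 6 such genes, 5 were highest in S1, beside 35.4% of all genes compared. Ttr, the thyroxine carrier, was at 184.7, 22.6 and 5.6 TPM, Trf, transferrin, at 121.4, 17.9 and 16.1 TPM, and Alb, albumin, at 8.5, 3.9 and 0.4 TPM. Apoa1, of high-density lipoprotein, ran the other way, at 0.2, 7.0 and 10.4 TPM.

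Of the 9 genes, 5 were highest in S1 (35.4% of all genes compared), 1 in S2 (36.4%) and 2 in S3 (26.4%), and Ahsg was even. Spp1, Spp2, Alpl, Mgp, Umod and Fetub were 2-fold apart in some pair of segments, as were 33.3% of all genes. Between S1 and S2, 3 passed 2-fold with the higher value in S1 (Spp1, Spp2 and Alpl) and 2 with the higher value in S2 (Mgp and Umod). The share of all genes past 2-fold in that comparison was 24.3%. Between S1 and S3, Spp1, Spp2 and Alpl were higher in S1 (10.5% of all genes), and Umod and Fetub in S3 (13.1%), beside 23.6% of all genes in either direction. Between S2 and S3, 4 were higher in S2 (Spp1, Spp2, Alpl and Mgp; 8.74% of all genes) and 0 in S3 (2.24%), beside 11.0% in either direction. The median difference over all 9 was 0.06 between S1 and S2, 0.59 between S1 and S3, and 0.42 between S2 and S3, each as the earlier segment minus the later. Over all genes compared it was -0.18, -0.01 and 0.12. The genes were picked with these levels known and the 3 comparisons share their columns, so the counts are a description and nothing is read from them.

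**Figure D4:**
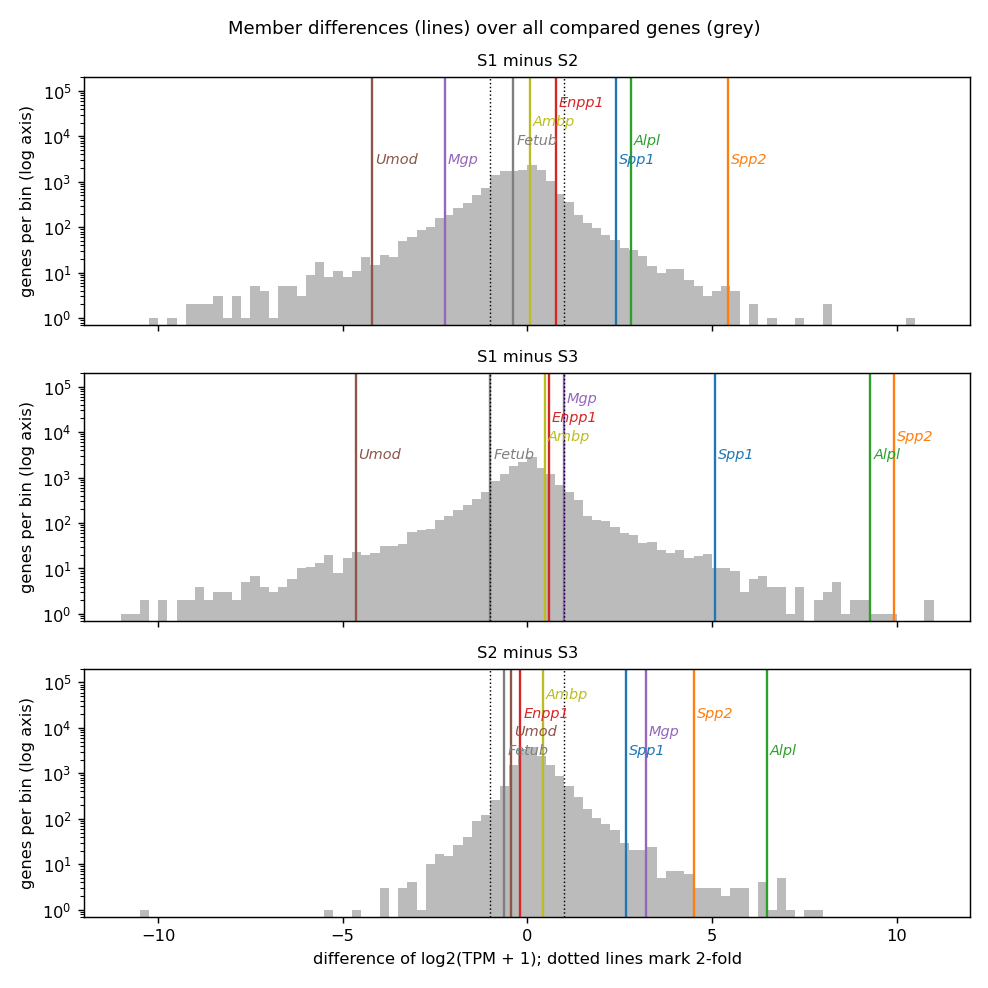
Differences of log2(TPM + 1) between segments for all 16053 genes compared (grey, genes per bin of a log axis) with each of the 9 genes except Ahsg, whose values are equal, as a coloured line, and dotted lines at 2-fold. Spp2 and Alpl lie in the right tail for S1 minus S3, at 9.94 and 9.29, and Umod on the left at -4.65.

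The genes with levels most like each of the 6 that reached 10 TPM were taken by Euclidean distance of log2(TPM + 1) over the 3 segments, among 7257 candidates of at least 10 TPM. Spp1 was nearest to Dnase1 (2347.3, 656.9 and 131.0 TPM, distance 1.13), then to Apoe and Ldhb. Spp2 was nearest to Gatm (4072.3, 186.6 and 1.0 TPM, distance 1.49), then to Acaa2 and Igfbp4. The 3 genes nearest to Alpl included Acaa2 (1137.7, 187.2 and 4.0 TPM, distance 1.49) and Car14. Acaa2 was thus among the nearest 3 of both Alpl and Spp2, though at a distance of 2.19 from Spp2. No candidate came within 0.5 of Spp1, Spp2, Alpl or Mgp. Mgp was nearest to Fbln5 (2.9, 29.8 and 1.9 TPM) and Ecm1, both at a distance of 0.93, and then to Spry1. Umod was nearest to Stra6l (0.4, 22.8 and 30.2 TPM, distance 0.25), Map3k7cl and Cebpd, with 7 genes within 0.5. Enpp1 lay in a crowd: 271 genes came within 0.5 of it, Tuft1, Fdft1 and Pptc7 nearest. With 3 points per gene such likeness is a description.

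The family members of the 9 genes gave mixed pictures. Osteopontin belongs to the SIBLING family of bone and tooth phosphoproteins, whose genes lie together on chromosome 5. Its relatives Dspp, Dmp1, Ibsp and Mepe, at gaps of 96.5 to 255 kb from Spp1, did not exceed 0.4 TPM, while Pkd2, at 12.9 kb on the other side, was at 32.7, 36.4 and 37.1 TPM. The collagen-binding Sparc of the wider list was at 85.1, 161.9 and 63.2 TPM. Its S2 minus S3 difference of 1.34 went to 0.83 under median-of-ratios scaling.

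The fetuins lie on chromosome 16 beside Hrg and the kininogens, all of them genes with cystatin domains. There Ahsg, Fetub, Hrg and Kng1 did not exceed 1.0 TPM. Kng2, 46.1 kb from Fetub, was at 1.0 TPM in S1, 368.9 TPM in S2 and 734.6 TPM in S3. The near-identical Kng1 was at 0.0, 0.3 and 0.4 TPM, and how reads were shared between the copies is not known. Elsewhere in the family, the secreted cystatin Cst3 was at 376.2, 453.7 and 415.0 TPM and the intracellular Cstb at 265.4, 201.4 and 261.6 TPM, each less than 2-fold apart as deposited.

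Umod lies beside genes that had its order at low levels, with a gene of the opposite order further off. Its paralogue Gp2, 3.44 kb away, was at 0.0, 0.9 and 1.5 TPM. Pdilt, 7.32 kb away on the other side, was at 0.0, 2.3 and 2.8 TPM. Both were thus listed at 0 in S1, where Umod was at 0.2 TPM, and values this low may rest on few reads. At a gap of 75.1 kb, Acsm2, a medium-chain acyl-CoA synthetase, had the opposite order, at 3156.3, 560.9 and 9.3 TPM. Its relatives Acsm5 (37.8, 90.2 and 90.4 TPM) and Acsm1 (243.5, 553.1 and 771.1 TPM), on either side of Acsm2, were lowest in S1 as Umod was. Ambp also had a well expressed neighbour: Kif12, 3.78 kb away, was at 238.7, 165.3 and 131.4 TPM. These neighbours were chosen after their values were seen.

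**Figure D5:**
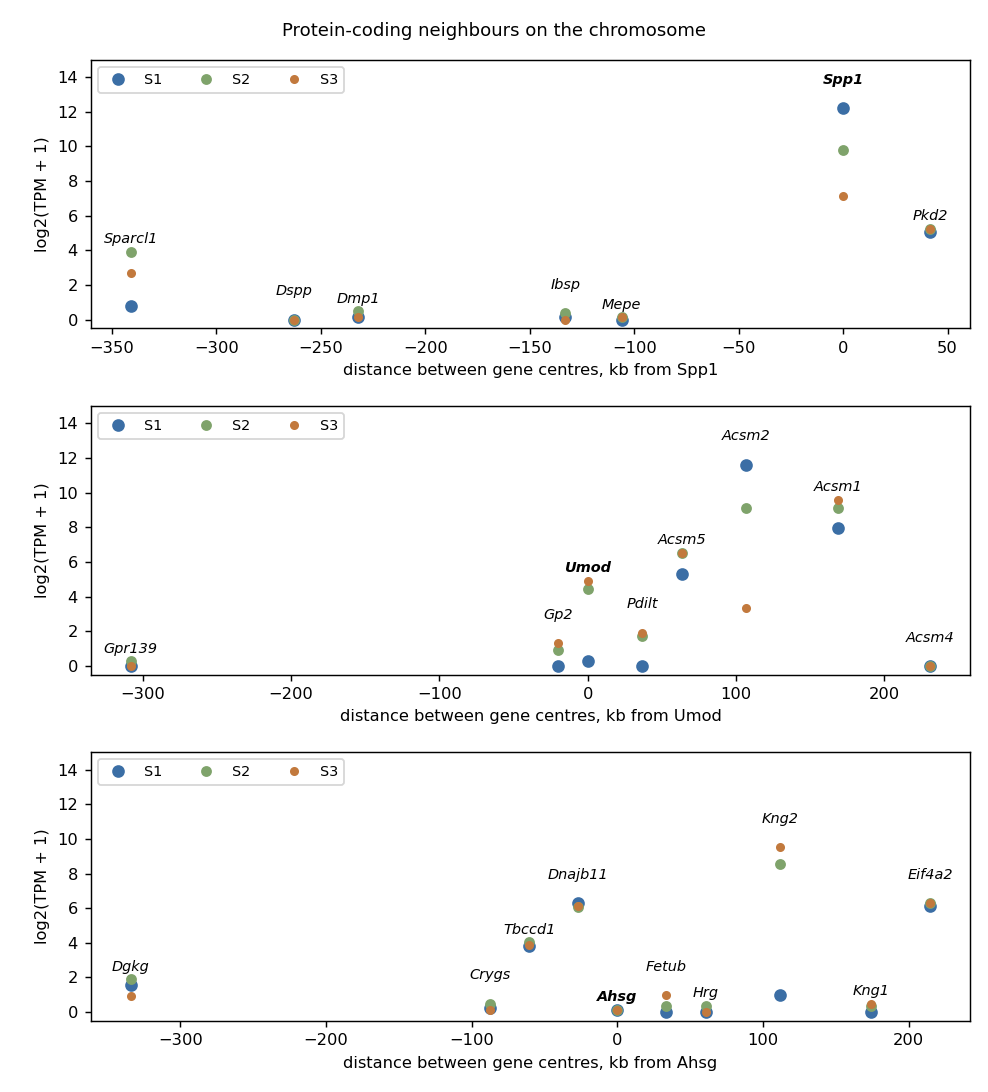
Levels as log2(TPM + 1) in S1, S2 and S3 (3 coloured points per gene) of protein-coding genes near Spp1 (top), Umod (middle) and Ahsg (bottom). They are placed by the distance between gene centres in kb. Each panel has at most 5 genes on each side, with centres within 350 kb, so it leaves out some in that range. Spp1 stands above relatives that do not exceed 0.4 TPM, Acsm2 has the order opposite to Umod, and Kng2 reaches 734.6 TPM beside fetuin genes of at most 1.0 TPM.

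Partners of these proteins were taken from fixed lists. Of 10 genes for osteopontin receptors, 8 reached 1 TPM. For 4 the S2 value was at least 2-fold above S1 (17.7% of all genes), and for 0 it was as far below (6.62%). The integrin chains Itgav (24.9, 74.8 and 94.3 TPM) and Itgb6 (60.2, 152.5 and 247.9 TPM), which pair with each other, were highest in S3, where Spp1 was lowest. The rest of the 4 were Itga8 and Itga9, neither above 2.1 TPM. All 4 calls were lost under median-of-ratios scaling, with the sign kept, and Itgav and Itgb6 stayed past 2-fold for S1 minus S3 (-1.88 and -2.02 as deposited). Itgb1 (51.7 to 56.5 TPM) and Itgb5 (20.1 to 39.9 TPM) differed less than 2-fold as deposited. Cd44, the hyaluronan and osteopontin receptor, did not exceed 1.2 TPM, and Itgb3 did not exceed 0.4 TPM.

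Mgp needs vitamin K-dependent carboxylation, and the genes of that step were expressed in all segments. Ggcx, the carboxylase, was at 13.6, 17.2 and 23.6 TPM, and Vkorc1, which recycles vitamin K, at 238.8, 174.8 and 101.9 TPM. Nqo1, a quinone reductase, was at 20.8, 57.4 and 72.4 TPM. Some other carboxylated proteins were far above Mgp, such as Gas6, a ligand of TAM receptors, at 449.5, 189.2 and 77.9 TPM, and Proc, protein C, at 52.1, 239.2 and 291.8 TPM. In this list of 10, 9 reached 1 TPM. The S1 value was at least 2-fold above S3 for 2, Vkorc1 and Gas6 (10.5% of all genes). It lay as far below for 4 (13.1% of all genes), among them Nqo1, F2 and Proc. F2, prothrombin, of which a fragment is found in stones, did not exceed 3.0 TPM.

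Of 7 genes for processing enzymes, 4 reached 1 TPM. Among these 4, 1 passed 2-fold between S1 and S2 (Fam20a, at most 1.9 TPM), beside 24.3% of all genes. Between S1 and S3, 1 passed (Hpn), beside 23.6%. The Fam20a difference of -1.27 was -0.97 under median-of-ratios scaling and -0.81 under quantile normalization. Fam20c, the kinase that phosphorylates osteopontin and its relatives in the secretory path, was at 64.2, 49.2 and 67.5 TPM, and Furin at 51.8, 51.9 and 68.8 TPM. For Fam20c, S1 minus S2 went from 0.38 to 1.08 under median-of-ratios scaling, which takes it past 2-fold. Hpn, hepsin, the membrane protease that releases uromodulin, was at 313.2, 555.9 and 680.8 TPM. Its S1 minus S3 difference was -1.12, and -0.92 under median-of-ratios scaling. The heavy chain family that includes the partners of bikunin was low, as Ambp was. Itih5 at 0.4, 6.8 and 7.0 TPM and Itih2 at 0.0, 1.4 and 4.3 TPM were the highest of the 5 Itih genes. Among lipocalins, the family of alpha-1-microglobulin, Apom was at 85.0, 254.7 and 145.1 TPM, and the other 5 did not exceed 0.5 TPM.

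Proteins to which crystals can attach, and transporters of their ions, completed the lists. Anxa2, an annexin that binds calcium oxalate crystals, was at 5.8, 49.7 and 23.0 TPM, and Eno1 at 570.8, 353.2 and 225.6 TPM. Of these 6 genes, 3 (Anxa1, Anxa2 and Vim) had S2 at least 2-fold above S1 (17.7% of all genes) and 0 the reverse (6.62%). Anxa1 (0.7, 4.2 and 2.4 TPM) and Vim (0.6, 2.7 and 1.4 TPM) were low in every segment. Under median-of-ratios scaling Vim no longer passed (-0.81), and Eno1 came to pass in the other direction (1.40). Slc26a1, an exchanger of sulfate and oxalate, followed the order of Spp2 and Alpl, at 163.5, 39.3 and 1.1 TPM. Slc13a2, which takes up the stone inhibitor citrate, had the reverse order, at 9.6, 115.3 and 117.1 TPM, while the oxalate exchanger Slc26a6 stayed at 20.6 to 22.9 TPM. In the list of 10 calcium handling genes, of which 4 reached 1 TPM, 0 were 2-fold apart in any comparison as deposited. Without mitochondrially encoded genes, Gpx3 and Kap in the total, the calcium pump Atp2b1 reached 1.01 for S2 minus S3. The list had Cldn2, a channel for calcium between cells, at 260.4, 272.0 and 294.0 TPM and Pth1r at 379.0, 551.9 and 497.7 TPM.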

How the data were processed

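Libraries were made from 2 to 5 tubules with the SMARTer V4 ultra-low-input kit (10 to 12 PCR cycles) and read as pairs of 50 bases, per the labels' protocols, which name no molecular identifiers. The submitters' processing notes name mm10, RSEM, STAR, Bowtie2, SAMtools, Picard, cutadapt and MACS2 without roles. The authors deposited TPM, 1 value per gene and segment, rounded to 1 decimal. How libraries were combined, and the annotation, are not given in the sources used here. TPM keeps no depth, so no counting interval was computed. Of 8 value columns the 3 for female RNA-seq were used and 5 were not, since their names match no RNA-seq sample in the labels.

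Differences are of log2(TPM + 1), a pseudocount of 1 that understates the fold of low genes. Genes with at least 1 TPM in some segment (16053) were compared, and 2-fold means a difference of at least 1. With 1 value per segment no test was run. Ratio bounds cover rounding only. The 9 genes and the 13 pathway and 15 marker lists were chosen with earlier results of these data known. The naming rule took the 9, their 3 nearest genes, and list genes past 2-fold with at least 10 TPM or the highest of the rest. Further genes were named outside the rule, such as Abcc6, Slc20a1, Xpr1, Cd44, F2, Slc26a6 and the chromosome neighbours. Protein sequences were not used here, and a few genes that the rule names are not reported here. Code was tested on simulated data. Symbols of all 9 matched a table of gene names. Positions and windows are RefSeq GRCm38.p6, 1-based. Python 3.11.15, numpy 2.4.6 and pandas 2.3.3 were used.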

Additional observations from a re-analysis of the deposited data

How the results depend on the processing

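No paired analysis was possible because each segment has 1 deposited value. For the same reason no library could be left out. Counts of the 9 genes past 2-fold were 5, 5 and 4 for S1 against S2, S1 against S3 and S2 against S3 as reported, and ranged from 5 to 6, 4 to 6 and 4 to 5 over 8 alternatives (pseudocounts 0.1 and 5, filters of 5 TPM and none, 3 other scalings, a 4-fold threshold). A filter cannot move the difference of a gene that passes it. Over the other 6 alternatives there were 144 single differences. Of these, 137 stayed on their side of the threshold, 5 came to pass it and 2 no longer did. No called difference turned its sign, but a pseudocount or the 4-fold threshold cannot turn one. Only the 3 other scalings could. The 4-fold threshold moves no difference and can only lose calls. It gave 23 of those that stayed and 1 of those lost. At 5 TPM, Fetub and Ambp had no value. All calls of Spp1, Spp2, Alpl and Umod were kept. Median-of-ratios scaling moved the median of all genes from -0.18 to 0.40 for S1 minus S2 and from 0.12 to -0.31 for S2 minus S3, and the 2-fold calls toward S1 and toward S2 from 1062 and 2840 to 3550 and 1586. Calls toward S2 and toward S3 went from 1403 and 359 to 730 and 967. Quantile normalization gave 1420 and 1826, and 884 and 498. A pseudocount of 0.1 raised the share of all genes past 2-fold from 24.3%, 23.6% and 11.0% to 37.9%, 33.7% and 22.9%, and a pseudocount of 5 took it to 9.77%, 12.0% and 2.83%.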

Other observations

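Beyond the 9 genes, the 6 markers of injured tubule summed to 1.8 TPM in S1, 22.9 TPM in S2 and 103 TPM in S3, and their part in any result was not tested. Most of the S3 sum came from Cp, ceruloplasmin, at 0.5, 15.9 and 95.8 TPM. Havcr1 (KIM-1) was at 0.0, 0.8 and 4.4 TPM, Vcam1 was at 0.6, 5.3 and 1.9 TPM, Krt20 at 0.7, 0.3 and 0.4 TPM, and Lcn2 did not exceed 0.4 TPM.

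Some transcripts classed with other nephron parts were present while most of their list was low. Cryab, fixed here as a thin limb marker, was at 19.1, 281.9 and 1040.2 TPM, while Slc14a2 was at 0, Bst1 and Fst did not exceed 0.8 TPM and Epha7 did not exceed 2.5 TPM. Aqp3 (28.3, 5.2 and 0.1 TPM) and Fxyd4 (32.3, 7.4 and 0.9 TPM), fixed as collecting duct markers, were highest in S1, while Aqp2 did not exceed 0.5 TPM and Scnn1g and Hsd11b2 did not exceed 0.1 TPM.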
